A study of Mus musculus with 2 samples.

Results

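Genes of the non-collagen extracellular matrix were examined in marrow niche cells of transplanted mice, in which acute graft-versus-host disease (aGVHD) had or had not been induced. The set holds 48 genes for matrix glycoproteins, proteoglycans and the enzymes that process or crosslink matrix, chosen by name. All 48 were found, each as 1 row, among the 54532 genes of the deposited expression table. The aGVHD_V group was female CB6F1 mice, conditioned with 2 radiation doses of 4.0 Gy, given B6.SJL marrow cells 4 hours later and also spleen cells of female C57BL/6 mice, the source of the T cells that attack the host. The BMT group was treated in the same way but received no spleen cells. Irradiation and transplanted marrow are thus common to both groups, and no untreated marrow was analysed here. What the V in the group name means, the age of the mice and whether marrow of several animals was pooled are not given. Cells were sorted as negative for CD45, CD71 and blood lineage antigens, and as alive by Calcein AM and DAPI. The series title names single cells, but the table holds 1 value per gene and library. Each group is 1 RNA-sequencing library, so no difference given here has a replicate check and no test between the groups was possible.

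The matrix genes encode the scaffold on which marrow cells sit. Laminins, nidogens, perlecan and agrin build the basement membranes under vessel walls and around other cells. Fibrillin, elastin and the fibulins form elastic fibres and microfibrils, and small leucine-rich proteoglycans such as biglycan and decorin bind collagen fibrils and growth factors. Matricellular proteins, among them SPARC, tenascin C and the thrombospondins, alter how cells attach, and the lysyl oxidases and hydroxylases make collagen and elastin fit for crosslinking. In marrow much of this material is made by reticular and other mesenchymal stromal cells and by vessel walls, whereas megakaryocytes, platelets and macrophages also carry some of it, such as thrombospondin 1 and fibronectin.

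The sorted cells were a mixture in both libraries. Over genes, 11299834 reads were recovered in the aGVHD_V library and 10869191 in the BMT library, and the genes with reads numbered 12310 in the aGVHD_V library and 15477 in the BMT library. Summed over the 8 markers of mesenchymal stroma, FPKM (fragments per kilobase, scaled to library size, the authors' unit) came to 25.3 in the aGVHD_V library and 538 in the BMT library. All 8 were at least 2-fold lower, against 19.4% of all genes with 1 FPKM or more in either library. The leptin receptor gene Lepr was at 0 in the aGVHD_V library. The 6 osteolineage markers summed to 4.12 FPKM in the aGVHD_V library and 44.3 FPKM in the BMT library, with Ibsp and Sp7 at 0 in the aGVHD_V library and Bglap at 0 in both. For the 6 endothelial markers the aGVHD_V sum was 3.99 FPKM and the BMT sum 38.1 FPKM. Cdh5, Cldn5, Kdr and Tek were at 0 in the aGVHD_V library, of which Tek had 93 reads in the BMT library. Emcn differed little, at 1.58 FPKM in the aGVHD_V library and 1.43 FPKM in the BMT library. The 6 pericyte and smooth muscle markers had an aGVHD_V sum of 70.7 FPKM and a BMT sum of 127 FPKM, with Kcnj8 at 0 in the aGVHD_V library and Tagln at 0 in both. Markers of blood cells were present in both. The aGVHD_V sums were 131975 FPKM for erythroid cells, 14448 for neutrophils, 104 for macrophages and 289 for the 3 pan-leukocyte genes, and the BMT sums of the same lists were 37114, 11164, 124 and 208 FPKM. Ptprc, which encodes the CD45 antigen used for depletion, had 7.85 FPKM in the aGVHD_V library and 9.28 FPKM in the BMT library. Megakaryocyte and platelet markers summed to 267 FPKM in the aGVHD_V library and 78.3 in the BMT library, with Gp1ba at 0 in the aGVHD_V library. The part of these differences in cell content in the values below was not tested.

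Matrix transcripts were lower in the aGVHD_V library as a group. The 48 genes summed to 211 FPKM in the aGVHD_V library, against 656 FPKM in the BMT library, 3.11-fold lower. They took 0.107% of the recovered reads of the aGVHD_V library and 0.388% of those of the BMT library. These shares and the FPKM sums have unlike divisors. The library sizes implied by the deposited FPKM are 0.9435 times the recovered reads in the aGVHD_V library and 1.1157 times in the BMT library. Genes that reached 1 FPKM in either library are called measured, which 42 of the 48 did. A gene was called at least 2-fold lower or higher when the difference of log2(FPKM + 1), aGVHD_V minus BMT, was -1 or less or 1 or more. Of the 42 genes, 29 (69.0%) were at least 2-fold lower and 13 lay within 2-fold, while among all 12942 measured genes 19.4% were lower. None of the 42 was at least 2-fold higher, against 8.65% of all measured genes. The 6 genes below the minimum could not pass either limit, since 2 values under 1 FPKM differ by less than 1 on this scale. The median difference of the 42 was -2.05 (95% order-statistic interval over genes -2.40 to -1.27), and that of all measured genes was -0.07. These counts describe the set and are not a test, since a low gene passes the minimum through the library in which it is higher. In bulk RNA of mixed cells, fewer cells of a type and less RNA per cell cannot be told apart.

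**Figure D1:**
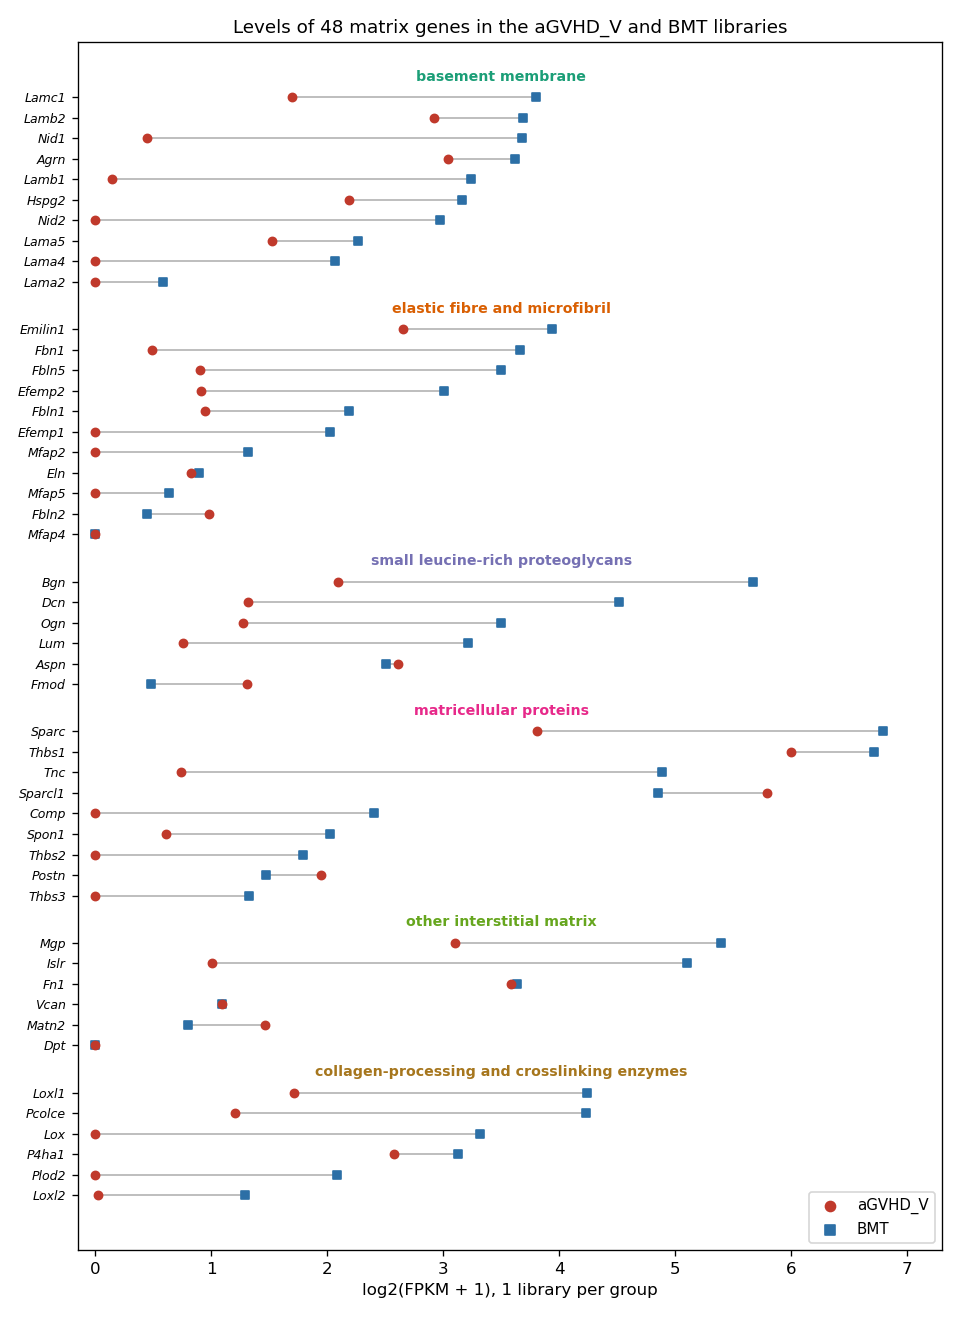
Level of each of the 48 genes as log2(FPKM + 1), by role, with a red circle for the aGVHD_V library and a blue square for the BMT library (1 library each, no error bar). The circle lies to the left of the square for most genes, and to the right for Sparcl1, Postn, Fmod, Matn2, Aspn and Fbln2.

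Counting error limits the single genes. Detected genes most often had 44 reads in the aGVHD_V library and 14 in the BMT library, so reads were divided by these modal numbers before exact binomial 95% intervals of the FPKM ratio were made. These widened intervals cover counting error only, and differences among mice are not in them. Where a gene lacked reads, 3 such counts per library (132 reads in the aGVHD_V library, 42 in the BMT library) served as its floor. By this measure 18 of the 32 measured matrix genes with a ratio had an interval wholly below 1, and 6 more, without reads in the aGVHD_V library, were lower by a bound above 1. These 24 genes are 57.1% of the 42, against 5.36% of all measured genes. Under the deposited scaling a single gene, Sparcl1, had an interval wholly above 1, against 5.97% of all measured genes. Reads were lacking in the aGVHD_V library for 9 of the 42 (21.4%), against 12.1% of all measured genes.

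**Figure D2:**
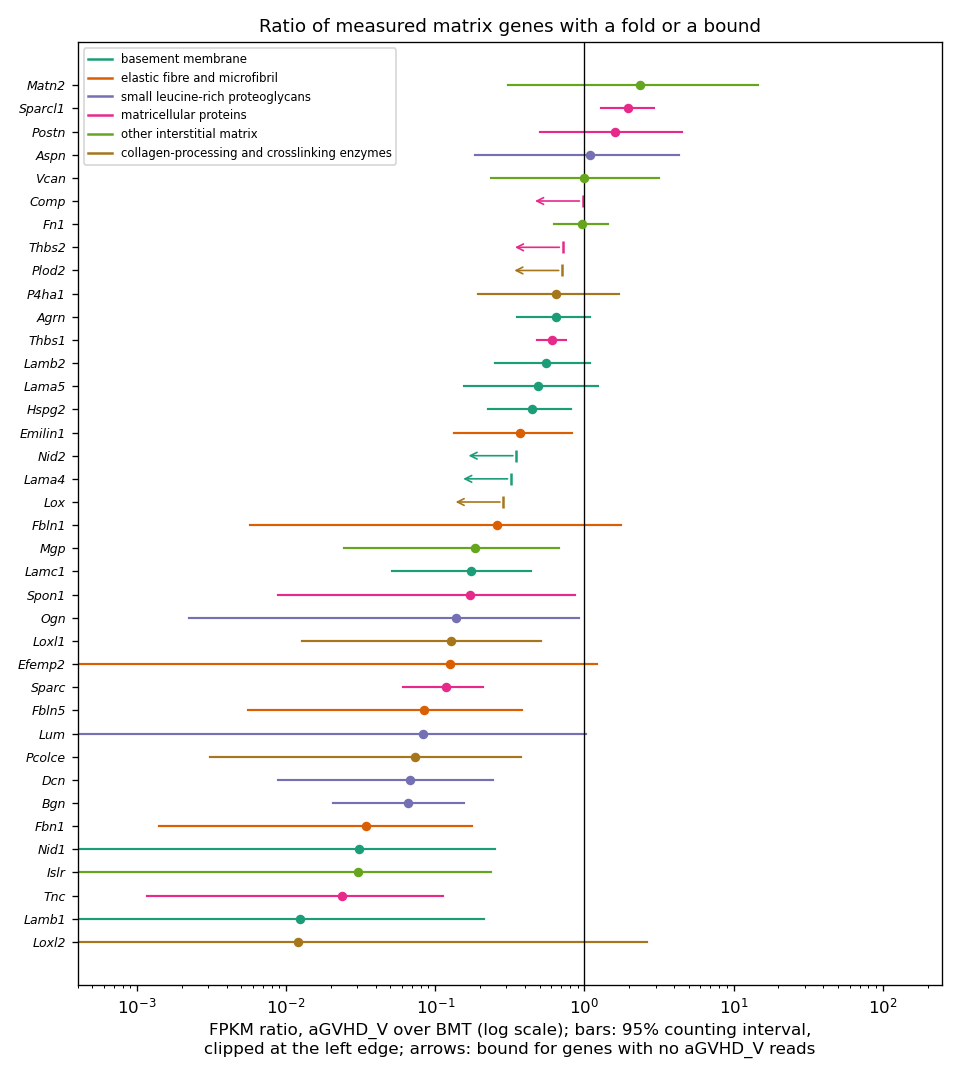
FPKM ratio of the aGVHD_V over the BMT library on a log axis for the 38 measured genes with a ratio or a bound, coloured by role. Bars are widened 95% counting intervals, clipped at the left edge, and arrows start at the bound of genes without reads in the aGVHD_V library. Intervals of 18 genes lie wholly left of 1, and Sparcl1 lies wholly right of it.

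The share of lower genes among all measured genes differed between levels, and the matrix genes were therefore also set against genes of like mean FPKM. Below a mean of 5 FPKM, 15 of 21 matrix genes (71.4%) were at least 2-fold lower, against 34.3% of all measured genes there. Between 5 and 20 FPKM 11 of 16 matrix genes (68.8%) were lower, against 9.62% of all measured genes. At 20 FPKM or more it was 3 of 5 (60%), against 2.93% of all measured genes. The share in matrix genes was above that in all genes in each of the 3 classes.

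**Figure D3:**
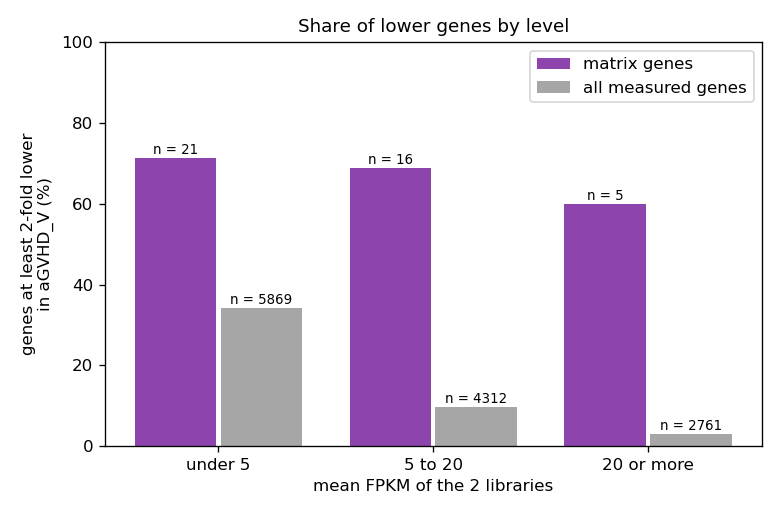
Share (%) of genes that were at least 2-fold lower with aGVHD_V, in 3 classes of mean FPKM, for matrix genes (purple) and all measured genes (grey), with the number of genes above each bar. The share of lower genes declines with level from 34.3% to 2.93% in all genes and stays between 60% and 71.4% in matrix genes.

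**Figure D4:**
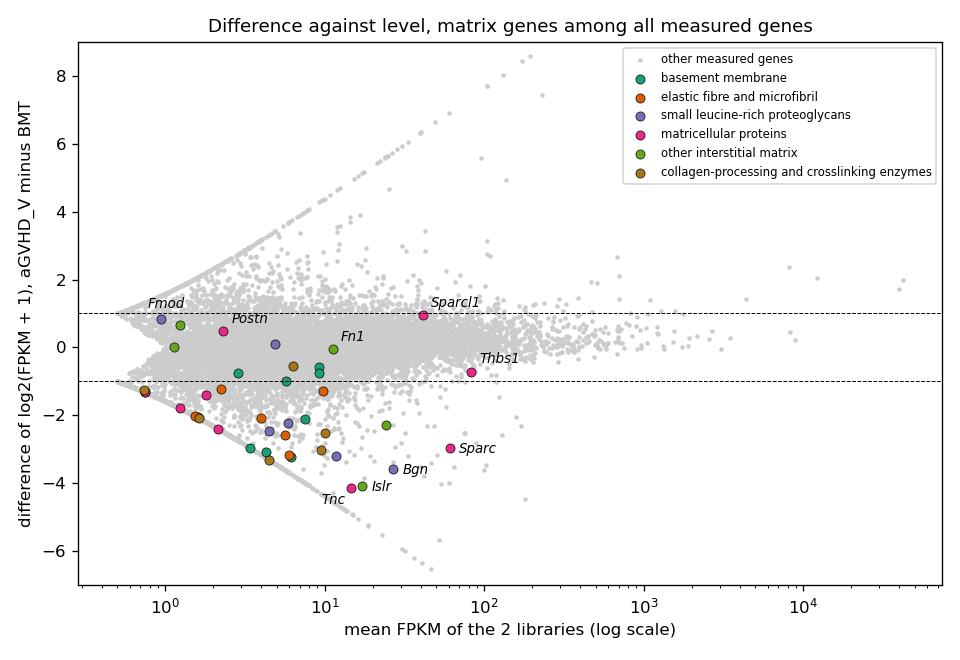
Difference of log2(FPKM + 1), aGVHD_V minus BMT, against the mean FPKM (log axis), with measured matrix genes coloured by role over all other measured genes in grey. Dashed lines mark 2-fold. Sparc, Bgn, Tnc and Islr lie below most genes of like level, and Sparcl1 and Thbs1, at high level, lie within 2-fold.

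Among the 10 basement membrane genes, 9 were measured. Of these, 5 (55.6%) were at least 2-fold lower, against 19.4% of all measured genes, and 4 lay within 2-fold. The 10 summed to 21.96 FPKM in the aGVHD_V library and 78.7 FPKM in the BMT library. The common laminin chain genes were far apart in their differences. Lamc1, the gamma 1 chain found in most laminins, had 2.25 FPKM in the aGVHD_V library and 12.9 FPKM in the BMT library, 5.75-fold lower (interval 2.28 to 19.6). Lamb1, the beta 1 chain, was almost absent in the aGVHD_V library, at 0.104 FPKM (11 reads), against 8.45 FPKM (1016 reads) in the BMT library (interval of the fold from 4.71). The alternative beta 2 chain gene Lamb2 had 6.57 FPKM in the aGVHD_V library and 11.9 FPKM in the BMT library, and its interval of 0.911-fold to 4.00-fold lower included no difference. The BMT library thus held both beta chains at like levels, and in the aGVHD_V library Lamb2 was the main beta chain of the pair.

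The alpha chain genes of vessel laminins fell on both sides of the 2-fold limit, but the bound of Lama4 lies within the interval of Lama5. Lama4, the chain of endothelial and mesenchymal basement membranes, had no aGVHD_V reads and 3.19 FPKM (467 reads) in the BMT library, at least 3.11-fold lower. Lama5 had 1.88 FPKM in the aGVHD_V library and 3.82 FPKM in the BMT library, 0.809-fold to 6.46-fold lower by its interval, which takes in no difference. Lama2, the chain of muscle and nerve basement membranes, stayed below 1 FPKM, with no aGVHD_V reads and 0.505 FPKM in the BMT library.

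The nidogens link laminin to type IV collagen, and both genes were lower. Nid1 had 0.365 FPKM in the aGVHD_V library and 11.9 FPKM in the BMT library (interval of the fold from 3.96). Nid2 had no aGVHD_V reads and 6.85 FPKM in the BMT library, at least 2.86-fold lower. Nid2 shares exon bases with Rtraf on the other strand, which had 872 reads in the aGVHD_V library and 1044 in the BMT library, and whether strand was used in counting is not given. The heparan sulphate proteoglycans of the basement membrane had smaller differences, though the interval of Hspg2 overlaps the ranges of both nidogens. Hspg2, perlecan, had 3.55 FPKM in the aGVHD_V library and 7.96 FPKM in the BMT library, 2.24-fold lower (1.24 to 4.45), just inside 2-fold on the log2(FPKM + 1) scale (-0.98). Agrn, agrin, had 7.25 FPKM in the aGVHD_V library and 11.3 FPKM in the BMT library (interval 0.913-fold to 2.82-fold lower, which included no difference). With the FPKM sums of the libraries made equal, the 4 basement membrane genes within 2-fold passed it, at -1.16 for Agrn, -1.61 for Hspg2, -1.38 for Lama5 and -1.36 for Lamb2. This scaling shifts all genes. It moved the median gene by -0.56, and 38.4% of all measured genes were then lower.

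Promoter sequences of Bgn, Tnc and Nid1, which were lower together, and of Agrn, which lay within 2-fold under the deposited scaling, are shown so that the letters of both kinds can be compared. They are RefSeq promoters (GRCm38.p6), from 250 bases before to 50 after the gene start. Of 21 genes whose RefSeq start lies within 100 bases of the deposited start, these are the 3 lower genes and the 1 other gene of highest mean FPKM. Bgn is at chrX:73483351-73483650 on the plus strand, Tnc at chr4:64046966-64047265 on the minus strand, Nid1 at chr13:13437352-13437651 on the plus strand and Agrn at chr4:156197439-156197738 on the minus strand. Capitals mark matches on either strand to 5 motifs. The TATA box was searched as TATAAA. The AP-1 motif was searched as TGANTCA, and the SMAD palindrome as GTCTAGAC. The GC box was searched as GGGCGG, and the repeat of GGA as GGAGGA, and copies of each may overlap.
Bgn: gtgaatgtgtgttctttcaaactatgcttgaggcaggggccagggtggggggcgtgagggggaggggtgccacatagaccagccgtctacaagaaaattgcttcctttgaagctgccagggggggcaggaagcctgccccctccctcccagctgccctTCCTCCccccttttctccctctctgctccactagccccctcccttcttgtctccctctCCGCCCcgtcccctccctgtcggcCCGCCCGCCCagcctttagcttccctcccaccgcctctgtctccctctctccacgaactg
Tnc: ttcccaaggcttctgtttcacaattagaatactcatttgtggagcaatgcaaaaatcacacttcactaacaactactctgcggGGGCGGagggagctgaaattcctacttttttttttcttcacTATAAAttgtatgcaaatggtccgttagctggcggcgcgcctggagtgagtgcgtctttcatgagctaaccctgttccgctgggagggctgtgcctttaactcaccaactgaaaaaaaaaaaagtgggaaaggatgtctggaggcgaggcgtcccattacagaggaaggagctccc
Nid1: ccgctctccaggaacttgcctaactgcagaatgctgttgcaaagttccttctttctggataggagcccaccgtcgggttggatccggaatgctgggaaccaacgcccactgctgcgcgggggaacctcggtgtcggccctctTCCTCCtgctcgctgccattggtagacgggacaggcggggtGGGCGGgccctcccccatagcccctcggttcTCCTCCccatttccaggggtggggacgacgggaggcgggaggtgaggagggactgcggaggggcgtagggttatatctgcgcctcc
Agrn: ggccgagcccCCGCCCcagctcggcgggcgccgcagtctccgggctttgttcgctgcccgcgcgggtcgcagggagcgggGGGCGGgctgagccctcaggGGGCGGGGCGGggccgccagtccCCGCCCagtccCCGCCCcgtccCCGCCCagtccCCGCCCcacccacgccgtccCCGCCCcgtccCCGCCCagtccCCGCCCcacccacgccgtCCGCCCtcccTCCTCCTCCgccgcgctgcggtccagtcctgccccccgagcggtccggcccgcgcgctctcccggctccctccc
The Bgn window holds 3 GC boxes and 1 GGA repeat, the Tnc window 1 TATA box and 1 GC box, the Nid1 window 1 GC box and 2 GGA repeats, and the Agrn window 12 GC boxes and 2 GGA repeats. CG dinucleotides number 9 in the Bgn window, 10 in Tnc, 20 in Nid1 and 42 in Agrn.

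Promoters of 29 of the 48 genes were in the RefSeq table, 17 of lower genes and 12 of others. A GC box was present in 10 of the 17 lower and 7 of the 12 other genes, against 35.7% of 32851 promoters of all genes. The TATA letters were in 3 lower and 4 other genes (13.6% of all promoters), the GGA repeat in 9 lower and 3 other genes (34.5%), and the AP-1 letters in 1 lower and 0 other genes (7.81%). The SMAD letters were in none of the 29, and in 0.213% of all promoters. These matches describe letters in the window and say nothing of binding.

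Of the 11 elastic fibre and microfibril genes, 7 were measured and all 7 of these were at least 2-fold lower. The share was 19.4% of all measured genes, and 34.3% of those below a mean of 5 FPKM. An interval wholly below 1 was found for 3 of the 7 (42.9%), against an interval or bound below 1 in 5.36% of all measured genes. The 11 summed to 10.1 FPKM in the aGVHD_V library and 53.3 FPKM in the BMT library. Fbn1, fibrillin 1, the backbone of microfibrils, had 0.402 FPKM (52 reads) in the aGVHD_V library and 11.6 FPKM (1711 reads) in the BMT library, 28.9-fold lower (5.70 to 711). Fbln5, the fibulin that joins elastin to cells, had 0.869 FPKM in the aGVHD_V library and 10.3 FPKM in the BMT library, 11.9-fold lower (2.62 to 180). Emilin1, a glycoprotein at the elastin and microfibril border, was the most abundant of the group in both libraries at 5.28 FPKM in the aGVHD_V library and 14.4 FPKM in the BMT library, 2.72-fold lower (1.20 to 7.46).

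The other measured elastic fibre genes had few reads. Efemp2, fibulin 4, had 0.886 FPKM in the aGVHD_V library and 7.04 FPKM in the BMT library, and Fbln1 had 0.923 FPKM in the aGVHD_V library and 3.55 FPKM in the BMT library, and both intervals included no difference. Efemp2 shares exon bases with Mus81 on the other strand, which had 297 reads in the aGVHD_V library and 173 in the BMT library. Efemp1 and Mfap2 had no aGVHD_V reads and 3.08 FPKM and 1.498 FPKM in the BMT library, too few for a bound. Eln, elastin itself, was below the minimum at 0.776 FPKM in the aGVHD_V library and 0.866 FPKM in the BMT library, as were Fbln2, at 0.972 FPKM in the aGVHD_V library and 0.362 FPKM in the BMT library, and Mfap5, with no aGVHD_V reads and 0.551 FPKM in the BMT library. Mfap4 had no reads in either library. Within the group the differences past counting error were those of Fbn1, Fbln5 and Emilin1.

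The small leucine-rich proteoglycans fell on both sides of the 2-fold limit. All 6 were measured, 4 at least 2-fold lower (66.7%, against 19.4% of all measured genes) and 2 within 2-fold. The group summed to 13.5 FPKM in the aGVHD_V library and 95.6 FPKM in the BMT library. Bgn, biglycan (ENSMUSG00000031375), had 3.28 FPKM (213 reads) in the aGVHD_V library and 50.02 FPKM (3700 reads) in the BMT library, 15.3-fold lower (6.38 to 48.5). Dcn, decorin, the closest relative of biglycan, had 1.49 FPKM in the aGVHD_V library and 21.9 FPKM in the BMT library, 14.7-fold lower (4.09 to 113). Ogn, osteoglycin, had 1.43 FPKM in the aGVHD_V library and 10.3 FPKM in the BMT library (interval of the fold from 1.08). Lum, lumican, had 0.690 FPKM (18 reads) in the aGVHD_V library and 8.29 FPKM (246 reads) in the BMT library, and its interval, from 0.970, included no difference.

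The genes of asporin and fibromodulin lay within 2-fold. Aspn had 5.10 FPKM (128 reads) in the aGVHD_V library and 4.69 FPKM (134 reads) in the BMT library, a ratio of 1.09 (interval 0.185 to 4.33). This interval overlaps those of Dcn, Ogn and Lum but not that of Bgn. The sign of the Aspn difference turned negative under 3 of the scalings, to values between -0.42 and -0.10. Aspn shares exon bases with Cenpp on the other strand, which had 229 reads in the aGVHD_V library and 300 in the BMT library. Fmod had 1.48 FPKM (52 reads) in the aGVHD_V library and 0.399 FPKM (16 reads) in the BMT library, at or under the floor in both, so no fold is given. In the BMT library the order of the group by FPKM was Bgn, Dcn, Ogn, Lum, Aspn and Fmod, whereas Aspn stood above Bgn in the aGVHD_V library. The aGVHD_V order rests on 128 reads for Aspn and 213 for Bgn and was not tested.

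Matricellular genes made up the largest share of the summed matrix level in both libraries, 63.7% in the aGVHD_V library and 43.2% in the BMT library. All 9 were measured, 6 at least 2-fold lower (66.7%, against 19.4% of all measured genes) and 3 within 2-fold. Sparc, which binds collagen and guides its assembly (ENSMUSG00000018593, chromosome 11, 55394500 to 55423183, minus strand), was the most abundant matrix gene of the BMT library. It had 13.05 FPKM (527 reads) in the aGVHD_V library and 109.9 FPKM (5048 reads) in the BMT library, 8.42-fold lower (4.76 to 16.5). Tnc, tenascin C, a glycoprotein of remodelling matrix (ENSMUSG00000028364, chromosome 4, 63959785 to 64047015, minus strand), had the lowest difference of the set (-4.14). Its level was 0.676 FPKM (56 reads) in the aGVHD_V library and 28.6 FPKM (2695 reads) in the BMT library, 42.3-fold lower (8.81 to 858).

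Sparcl1 and Thbs1 were abundant in both libraries and lay within 2-fold. Sparcl1, the hevin gene and a relative of Sparc (ENSMUSG00000029309, chromosome 5, 104079111 to 104113733, minus strand), had 54.5 FPKM (1707 reads) in the aGVHD_V library and 27.8 FPKM (991 reads) in the BMT library, a ratio of 1.96 (1.29 to 2.94). Its difference of 0.95 lay just inside 2-fold. The difference remained above 0 under the scalings tried but fell to 0.39 with equal FPKM sums and to 0.38 with the aGVHD_V library alone rescaled. The interval was made under the deposited scaling only. Thbs1, thrombospondin 1, which is stored in platelets and activates latent TGF-beta (ENSMUSG00000040152, chromosome 2, 118111876 to 118127133, plus strand), had 62.8 FPKM (4064 reads) in the aGVHD_V library and 104 FPKM (7636 reads) in the BMT library. It was 1.65-fold lower (1.32 to 2.08), within 2-fold at a difference of -0.72, but past 2-fold at -1.296 when the FPKM sums of the libraries were made equal. Together these genes held 55.6% of the summed matrix level in the aGVHD_V library and 20.1% in the BMT library. Without them, as an observation made after their values were seen, the sum over the other 46 genes was 93.7 FPKM in the aGVHD_V library and 524 FPKM in the BMT library, 5.59-fold lower. Of the 6 megakaryocyte and platelet markers, Pf4, Gp9 and Itga2b were at least 2-fold higher, against 8.65% higher of all measured genes. The ratio interval of Gp9 (0.672 to 8.61) included no difference. Ppbp and Vwf lay within 2-fold. Gp1ba was lower, but its 55 reads in the BMT library were too few for a bound. Of the 5 measured pericyte and smooth muscle markers, Rgs5, Kcnj8 and Abcc9 were at least 2-fold lower, against 19.4% of all measured genes. Kcnj8 had no aGVHD_V reads, and by its bound it was at least 1.07-fold lower. Acta2 and Myh11 lay within 2-fold. The part of such cells in the Sparcl1 and Thbs1 values was not tested.

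The other thrombospondins had no reads in the aGVHD_V library. Thbs2 had 2.47 FPKM (210 reads) in the BMT library and was at least 1.40-fold lower, and Comp, a cartilage thrombospondin, had 4.28 FPKM (154 reads) and was at least 1.03-fold lower. Thbs3, with 1.505 FPKM, had too few reads for a bound, and it shares exon bases with Mtx1 on the other strand (351 reads in the aGVHD_V library, 253 in the BMT library). Spon1, spondin 1, had 0.524 FPKM in the aGVHD_V library and 3.07 FPKM in the BMT library, 5.87-fold lower (1.16 to 113). Postn, periostin, had 2.86 FPKM in the aGVHD_V library and 1.77 FPKM in the BMT library, a ratio of 1.61 (0.505 to 4.51), so that no difference was also within counting error.

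**Figure D5:**
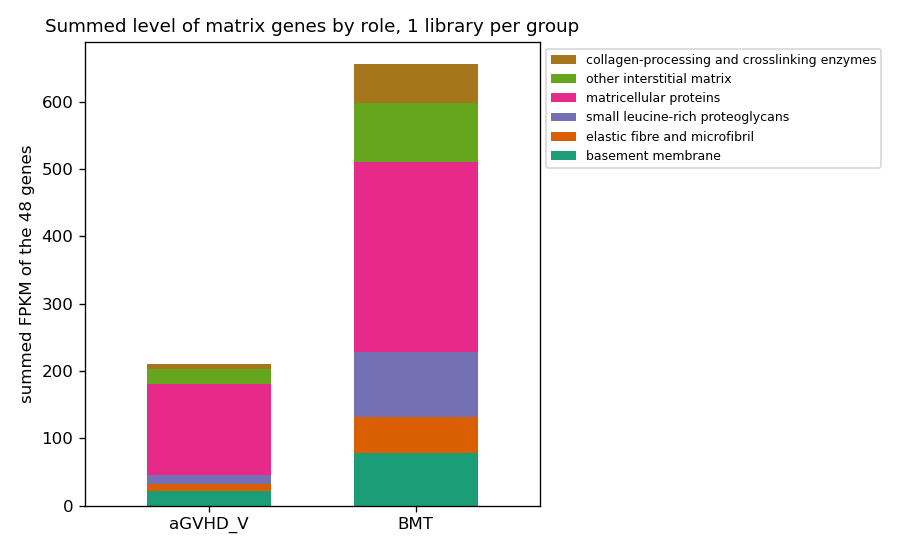
Summed FPKM of the 48 matrix genes, stacked by role, in the aGVHD_V library (left) and the BMT library (right), 1 library each. The aGVHD_V bar reaches 211 FPKM and the BMT bar 656 FPKM, of which matricellular genes take 134 FPKM and 283 FPKM.

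The remaining interstitial matrix genes, 5 of 6 measured, held 2 at least 2-fold lower genes (40.0%, against 19.4% of all measured genes) and 3 within 2-fold. Their median difference was -0.04. Mgp, matrix Gla protein, an inhibitor of calcification, had 7.59 FPKM in the aGVHD_V library and 41.2 FPKM in the BMT library, 5.43-fold lower (1.48 to 40.7). Islr, also called meflin, a marker of mesenchymal cells, had 1.01 FPKM (29 reads) in the aGVHD_V library and 33.3 FPKM (1084 reads) in the BMT library (interval of the fold from 4.24). Fn1, fibronectin, differed by less than its counting error, at 11.03 FPKM (1374 reads) in the aGVHD_V library and 11.4 FPKM (1616 reads) in the BMT library, a ratio of 0.967 (0.629 to 1.45). Vcan, the large proteoglycan versican, which monocytes also make, had 1.13 FPKM in the aGVHD_V library and 1.14 FPKM in the BMT library (ratio interval 0.238 to 3.16). Matn2, matrilin 2, had 1.75 FPKM in the aGVHD_V library and 0.737 FPKM in the BMT library (ratio interval 0.308 to 14.7). Dpt, dermatopontin, had no reads in either library. For Vcan and Matn2 the intervals are wide enough to hold several-fold differences in either direction.

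Of the 6 enzymes and enzyme partners that process or crosslink collagen, 5 were at least 2-fold lower (83.3%, against 19.4% of all measured genes). P4ha1 lay within 2-fold. The 6 summed to 8.56 FPKM in the aGVHD_V library and 57.1 FPKM in the BMT library. Lox, lysyl oxidase, which oxidises lysines so that collagen and elastin crosslink, had no aGVHD_V reads and 9.0 FPKM (525 reads) in the BMT library, at least 3.497-fold lower. Loxl1, its relative that acts mainly on elastin, had 2.28 FPKM in the aGVHD_V library and 17.9 FPKM in the BMT library, 7.88-fold lower (1.96 to 78.1). Loxl2 had 1 read in the aGVHD_V library and 95 reads (1.45 FPKM) in the BMT library, and its interval included no difference. Pcolce, which speeds the trimming of procollagen, had 1.3003 FPKM in the aGVHD_V library and 17.7 FPKM in the BMT library, 13.6-fold lower (2.66 to 322). Plod2, the lysyl hydroxylase of collagen telopeptides, had no aGVHD_V reads and 3.24 FPKM (212 reads) in the BMT library, at least 1.41-fold lower. P4ha1, a prolyl hydroxylase subunit needed for stable collagen helices in many cell types, had 4.97 FPKM in the aGVHD_V library and 7.74 FPKM in the BMT library (interval 0.590-fold to 5.20-fold lower, which included no difference). Its difference of -0.55 became -1.14 with equal FPKM sums.

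Further matrix genes outside the set were described from lists of related genes. Of 39 other glycoproteins and proteoglycans 23 were measured, 15 of them (65.2%) at least 2-fold lower and 0 higher, against 19.4% lower and 8.65% higher of all measured genes. Of these 23, 11 (47.8%) had no aGVHD_V reads, against 12.1% of all measured genes, and the median difference was -1.19. Ltbp2, a microfibril protein, had no aGVHD_V reads and 17.5 FPKM in the BMT library, at least 11.6-fold lower, and Smoc1, a relative of Sparc, had no aGVHD_V reads and 9.32 FPKM in the BMT library, at least 2.63-fold lower. Srgn, serglycin, the granule proteoglycan of blood cells, had 155 FPKM in the aGVHD_V library and 156 FPKM in the BMT library (ratio interval 0.771 to 1.28). Of 19 other collagen-processing enzymes and partners 15 were measured, 7 of them (46.7%) lower and 0 higher, against the same shares of all measured genes, and their median was -0.81. Of these 15, 3 had no aGVHD_V reads. Serpinh1, the collagen chaperone HSP47, had 5.61 FPKM in the aGVHD_V library and 75.3 FPKM in the BMT library, 13.4-fold lower (4.73 to 59.3). Crtap, a partner of the collagen prolyl hydroxylase, had 0.794 FPKM in the aGVHD_V library and 18.9 FPKM in the BMT library (interval of the fold from 1.73). P4hb, the disulphide isomerase that serves all secreting cells, had 148 FPKM in the aGVHD_V library and 161 FPKM in the BMT library (interval 0.873-fold to 1.36-fold lower).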

How the data were processed

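RNA sequencing of 2 libraries of sorted marrow niche cells, 1 aGVHD_V and 1 BMT, was used. Per the file headers, the deposited values are FPKM, with gene length in bases in an other column of the authors' table. Builds GRCm38 and mm10 and the tool edgeR 3.18.1 are listed, without a role, in the submitters' processing notes. The aligner, the counter and the strand setting are not stated there. The table's 1 column of per-sample values that fits no label, with a header that also begins with aGVHD, was left out.

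FPKM multiplied by length and divided by 1000 were whole multiples of 1 step per library for 100.0% of values (tolerance 0.05), which gave the reads. The modal read number is the peak of a moving window of 7 values, leaving out read numbers under 4. Exact conditional binomial (Clopper-Pearson) intervals and bounds used reads divided by it. A gene without reads has a floor of 3 counts per library, and where both libraries are at or under it no fold is given. A fold change on the log2(FPKM + 1) scale understates the change of low genes. Scripts were tested on simulated data and used Python 3.11.15, numpy 2.4.6, pandas 2.3.3, scipy 1.17.1 and matplotlib 3.10.9. Exon overlaps come from GENCODE M21 on GRCm38, promoters from RefSeq.

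The members, role groups and lists were chosen with earlier results of these data known. Members with an FPKM of 10 or more in a library or a difference above 0 are named with their values, and from each other matrix list the gene of highest mean FPKM and the 2 measured genes of largest absolute difference. Cell type marker lists are given by their sums and markers at 0, with the calls or values of some other markers. The 8 processing alternatives planned were joined by 2 chosen after seeing the data.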

Additional observations from a re-analysis of the deposited data

How the results depend on the processing

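No paired analysis was possible because each group is 1 library. For the same reason no library could be left out, and the depth and the modal read numbers limit genes under 132 reads in the aGVHD_V library and 42 in the BMT library. The count of 29 lower genes was 30 with a pseudocount of 0.1 (23.6% of all measured genes were then lower). It was also 30 with all recovered reads as library size (23.5% of all) and with centring on the median gene (19.9% of all). With no filter it was 29 of 48 (4.61% of all), a count that could not change, since genes under 1 FPKM in both libraries cannot pass 2-fold. It was 18 of 42 (3.89% of all measured genes were then lower) with a pseudocount of 5 and 19 of 27 (10.7% of all) with an FPKM minimum of 5. Setting genes that lack reads to the floor, capped at the level of the other library, gave 23 (7.63% of all). It was 23 of 35 (19.4% of all) without the genes sharing exon bases with another gene that had reads, an alternative chosen after seeing the data. Rescaling each library to an equal FPKM sum gave 37 of 46 (38.4% of all) and moved the median gene by -0.56. Rescaling the aGVHD_V library alone to the BMT sum, also chosen after seeing the data, gave 35 of 41 (29.1% of all) and moved it by -0.51, and taking all recovered reads as library size moved it by -0.22. No matrix gene was at least 2-fold higher under any of these except a pseudocount of 0.1. There 2 were (Fmod at 1.66 and Matn2 at 1.15), against 11.4% of all measured genes.

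The median difference of -2.05 was -2.99 with a pseudocount of 0.1, -0.72 with a pseudocount of 5, -2.46 with the minimum of 5, -2.64 with equal FPKM sums and -1.23 with the floor. By construction, the pseudocount and the floor shift the difference of low genes, the minimum counts fewer genes and the equal sums shift all genes. Among single genes, 347 values under the 9 alternatives moved by less than the interval's half-width or, with no ratio, kept their side of 2-fold. The other 16 did not, and only Aspn changed sign. Many of the 347 could not move. A changed or absent minimum leaves a gene's difference as it was, and the floor alters only genes that lack reads. Intervals without an upper limit of the fold are also too wide for most shifts to pass. Of the 13 genes within 2-fold, 6 passed it as lower with equal sums (Agrn -1.16, Hspg2 -1.61, Lama5 -1.38, Lamb2 -1.36, Thbs1 -1.30, P4ha1 -1.14). The same 6 passed it with the aGVHD_V library alone rescaled, at -1.07, -1.41, -1.09, -1.25, -1.28 and -1.01 in that order. Hspg2 also passed it with all recovered reads as library size (-1.18), with centring (-1.005) and with a pseudocount of 0.1 (-1.14). With each read taken as an independent count, 26 rather than 18 intervals lay wholly below 1, and 3 rather than 1 lay wholly above it. Those above were Sparcl1, Postn and Matn2. The share over all measured genes was not computed for this setting.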

Other observations

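Receptors for matrix are given as a further list. Of 13 measured receptors other than integrins, the aGVHD_V library had 5 (38.5%) at least 2-fold lower and 0 higher, against 19.4% lower and 8.65% higher of all measured genes. Their median difference was -0.28 (95% order-statistic interval over genes -1.93 to 0.15). Ddr2, a collagen receptor of mesenchymal cells, had 0.202 FPKM in the aGVHD_V library and 4.28 FPKM in the BMT library (interval of the fold from 1.97). Sdc2, the heparan sulphate proteoglycan syndecan 2, had 0.851 FPKM in the aGVHD_V library and 7.55 FPKM in the BMT library (from 1.15). Cd47, the thrombospondin 1 receptor found on most cells, had 68.3 FPKM in the aGVHD_V library and 61.6 FPKM in the BMT library (ratio interval 0.882 to 1.39).

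A total of 3 pairs of matrix genes lie within 1000000 bases of each other. On chromosome 10 Dcn and Lum, 47.0 kb apart, had differences of -3.20 and -2.46, and on chromosome 9 Islr and Loxl1, 83.4 kb apart, had -4.09 and -2.53. On chromosome 13 the neighbours Aspn and Ogn, 40.5 kb apart, had 0.10 and -2.22. Of the 48 genes, 17 share exon bases with another listed gene in GENCODE M21, and for 8 of them that gene had reads in at least 1 library.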
